A study of Oryza sativa Indica Group with 226 samples.

Results

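TAC1 (Tiller Angle Control 1), a gene of rice chromosome 9 that sets how far tillers lean from the stem, divided the recombinant inbred lines of a rice cross into a high and a low class. The classes were chosen by a measured value, the TAC1 level of each line, taken as the mean of its 2 arrays at the TAC1 probe set on the deposited log2 scale. A line with a mean of at least 8.0 was called high and any other line low, the limit lying at the midpoint of the parents (8.02). By this rule 64 of 110 lines (128 arrays) were high and 46 lines (92 arrays) were low, which used 220 of the 226 arrays of the study. The share of high lines was 58.2% (exact binomial 95% interval 48.4 to 67.5%, which covers the sampling of lines only).

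The lines (RILs) descend from a cross of the indica varieties Minghui 63 and Zhenshan 97, and every line was sampled in 2 biological replicates. Minghui 63 and Zhenshan 97 themselves were sampled in 3 replicates each. All material was shoot tissue of untreated seedlings 72 h after germination, from seeds soaked for 48 h at 25 °C, germinated at 35 °C and grown at 25 °C, with 85% relative humidity and darkness throughout. Neither class was made by a change to TAC1 alone: the lines of both classes carry mixtures of the parental genomes, and TAC1 and the chromosome segment around it pass to a line together, so that their effects cannot be told apart here. The study set out to dissect how the parents differ genetically in transcript levels.

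TAC1 belongs to the same plant gene family as LAZY1, which also acts on shoot gravitropism and tiller angle. Rice with an active TAC1 spreads its tillers, and rice with a weakly expressed allele stands compact and upright, which has been used in breeding for dense planting. In inbred lines of a cross, genes that lie close together on a chromosome are mostly inherited from the same parent, and genes farther apart are separated by recombination in more of the lines.

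Markers of shoot or leaf tissue were measured in both classes. PORA, the protochlorophyllide oxidoreductase that etiolated tissue accumulates, averaged 11.95 in high lines and 11.90 in low lines. CAB2R, a chlorophyll a/b binding protein, averaged 12.77 in high lines and 12.76 in low lines. The root markers Lsi1 and IRT1 averaged 8.47 and 5.19 in high lines and 8.45 and 4.91 in low lines, so Lsi1, a silicon transporter, was measurable in these shoot samples. Of 5 measured endosperm and embryo markers, 0 passed the test between the classes that is described below. Their means ran from 5.02 (RAG1) to 9.98 (GLB1) in high lines and from 5.04 to 9.95 in low lines. GLB1 was thus also measurable in these shoot samples. The median array level was 4.855 in high lines and 4.845 in low lines. Between lines, 6 pairs were nearly identical in expression (Pearson r of at least 0.9 over 599 segregating probe sets), and both members fell in the same TAC1 class in all 6 pairs. The probe sets from which the 599 were drawn included TAC1, so this count is no separate check of the classes. Replicate 1 arrays of 7 lines resembled a replicate 2 array of another line more than their own, and that other line was the near-identical partner in each case.

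TAC1 itself chose the classes and is given as a description. In high lines the line means ran from 9.45 through a median of 10.11 to 10.72, and in low lines from 5.42 through 6.03 to 7.11. An empty interval of 2.34 separated the classes, and their means, 10.09 ± 0.29 in high lines and 6.06 ± 0.34 in low lines (SD over lines), differed by 4.04. The lowest high line, RIL154, had arrays of 10.30 and 8.59, while the highest low line, RIL103, had arrays of 5.97 and 8.24. RIL103 was the only line of the 110 with arrays on both sides of the limit, and the only line with a mean between 7 and 9. Minghui 63 arrays measured 10.70, 10.77 and 10.83, and Zhenshan 97 arrays measured 5.23, 5.74 and 4.85. High lines thus lay near Minghui 63 and low lines near Zhenshan 97, with 0 line means between 7.11 and 9.45.

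**Figure D1:**
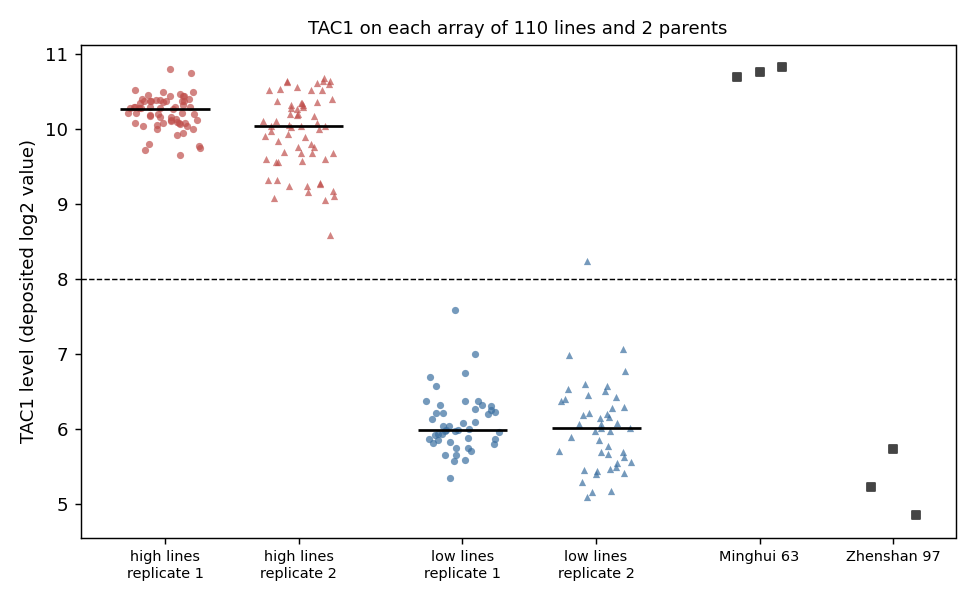
TAC1 level (deposited log2 value) on every array, by TAC1 class and replicate number for the lines and for the parents; circles are replicate 1, triangles replicate 2, squares parent arrays, black bars medians and the dashed line the limit of 8.0. The lowest array of a high line is at 8.59 and the highest array of a low line at 8.24, which alone crosses the limit, and high lines spread more widely in replicate 2 (SD 0.504) than in replicate 1 (SD 0.224).

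The level of a line inside its class was weakly related between its 2 replicates. Across the 64 high lines, TAC1 in replicate 1 and in replicate 2 had a Pearson correlation of 0.0981 (Spearman 0.115). Across the 46 low lines it was -0.104 (Spearman -0.132). Each such correlation describes lines whose 2 arrays come from separate biological replicates. High lines averaged 10.23 ± 0.22 in replicate 1 and 9.96 ± 0.50 in replicate 2 (SD, n = 64), and 43 of the 64 were lower in replicate 2. Low lines averaged 6.09 ± 0.39 in replicate 1 and 6.02 ± 0.59 in replicate 2 (SD, n = 46).

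All other probe sets were compared between high and low lines on line means. Of 27734 probe sets with a mean of at least 5, limma called 210 (0.757%) at an adjusted p under 0.05, with 94 (0.339%) higher and 116 (0.418%) lower in high lines. The calls concentrated on the chromosome of TAC1. On chromosome 9, 121 of 913 probe sets were called (13.3%), covering 110 genes, with 45 (4.93%) higher and 76 (8.32%) lower in high lines. On the other chromosomes, 22 of 16079 probe sets were called (0.137%), with 12 (0.0746%) higher and 10 (0.0622%) lower. Probe sets without an annotated gene had 67 calls of 10742 (0.624%), with 37 (0.344%) higher and 30 (0.279%) lower. The line means of the classes overlapped for each of these probe sets, giving 0 of 27734 (0%) without overlap. TAC1 is no measure for this count, since the rule itself set the classes apart at TAC1. All 210 called probe sets differed in the same direction in replicate 1 and in replicate 2. Their choice on the mean of both replicates favours such a match. The class difference changed between the replicate numbers at 4 of 27734 probe sets (0.0144%), and 3 of these 4 belonged to LOC4347149. Of the 121 calls on chromosome 9, 102 were also among the 131 called from replicate 1 arrays alone and 70 among the 71 called from replicate 2 arrays alone. Both single replicates called 65 of the 121 on chromosome 9 and 1 of the 22 on the other chromosomes.

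The differences on chromosome 9 were mostly small. The median absolute log2 difference was 0.317 among the called probe sets and 0.059 among all tested probe sets of that chromosome. Of the called probe sets, 7 reached a difference of 1, against 0 on the other chromosomes and 8 among those without a gene. The levels below are means over line means, and differences are high minus low lines unless stated.

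Called genes were spread over a long stretch around TAC1. Gene order was taken from the reference assembly ASM3414082v1, a genome other than those of these varieties, and an offset counts the protein-coding genes from TAC1, negative for genes before it. TAC1 is number 1346 of 1651 protein-coding genes on chromosome 9 in that assembly, with 305 after it. The calls ran from LOC4347112 at offset -582 to LOC4347875 at offset 243, with 96 called probe sets before TAC1 and 25 after it, and 509 probe sets tested inside that span. In the far bin from -1340 to -801, 0 of 250 were called (0%). Nearer, the called share was 7.39% from -800 to -401, 15.5% from -400 to -301 and 37.3% from -300 to -201. It was 33.3% from -200 to -101, 42.9% from -100 to -51 and 25% from -50 up to TAC1. After TAC1 it was 22.2% over offsets 1 to 50, 32.3% over 51 to 100, 7.41% over 101 to 200 and 5.66% over 201 to 303. The called share was therefore high from offset -300 to offset 100, and TAC1's immediate neighbours did not hold the highest share.

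**Figure D2:**
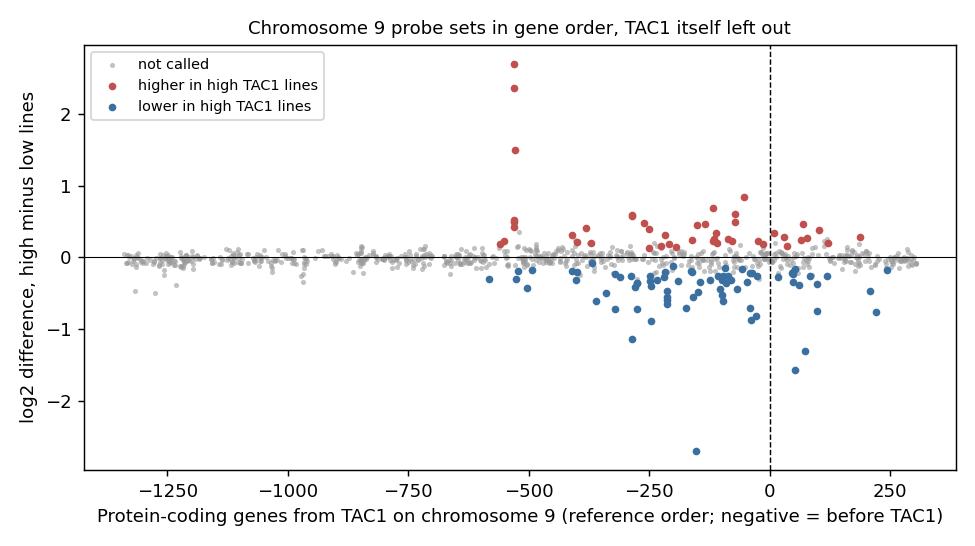
High-minus-low log2 difference of 913 chromosome 9 probe sets (y) against their offset in protein-coding genes from TAC1 (x); grey points were not called, red points were called higher and blue points lower in high TAC1 lines, and the dashed line marks TAC1, which is left out. Calls lie between offsets -582 and 243, while the 250 probe sets from -1340 to -801 hold 0 calls.

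Among the 16 nearest measured genes, 8 on each side of TAC1 at offsets from -11 to 13, 1 was called. LOC4347664, at offset 9, ran from 9.43 through 10.29 to 10.70 in high lines and from 9.26 through 9.93 to 10.30 in low lines. The classes overlapped, and the difference was 0.35 (SE 0.052, limma adjusted p = 4.74e-07). Differences of the 15 others, none of them called, lay between -0.07 and 0.20. The upper end was LOC4347666 at offset 11, with 6.97 in high lines and 6.77 in low lines (difference 0.20, limma adjusted p = 0.0609). LOC4347666 did pass the test when RIL103 was left out (0.21, limma adjusted p = 0.043), and LOC4347667, at offset 12, passed it in replicate 1 arrays alone (0.23, limma adjusted p = 0.00756). LOC4347654, which directly precedes TAC1, measured 10.77 in high lines and 10.84 in low lines (-0.07, limma adjusted p = 0.392). HOX6, a homeodomain-leucine zipper transcription factor gene at offset -5, measured 8.51 in high lines and 8.45 in low lines (0.06, limma adjusted p = 0.625). KIN7J, a kinesin gene at offset -7, measured 7.21 in high lines and 7.22 in low lines (-0.02, limma adjusted p = 0.878). LOC4347659, at offset 5, differed between the parents, with 8.81 in Minghui 63 and 10.25 in Zhenshan 97 (limma adjusted p = 0.000781). Between the lines it measured 9.75 in high lines and 9.82 in low lines (-0.07, limma adjusted p = 0.72), so a clear parental difference 5 genes away was not seen between the classes.

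Among the 16 called genes of chromosome 9 with a usable name, 12 were lower and 4 were higher in high lines, and 15 had the sign of the parental difference. Only 7 of the 16 were called between the parents, so the parental sign of the rest is uncertain. The gene with the widest change was PIP2;7, a plasma membrane aquaporin that conducts water across membranes, at offset 73. Its line means ran from 5.69 through 8.23 to 11.19 in high lines and from 7.11 through 9.60 to 11.83 in low lines. The classes overlapped broadly, with the median of the high lines below that of the low lines. PIP2;7 fell by 1.31 on the log2 scale in high lines (SE 0.199, limma adjusted p = 6.8e-07). Minghui 63 arrays had 5.29, 5.37 and 5.32, against 8.05, 8.77 and 8.85 in Zhenshan 97. Each Minghui 63 array lay below every line of either class, a level no line mean reached.

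HAK18, a potassium transporter gene of the HAK/KUP family at offset 221, ran from 7.38 through 8.16 to 9.63 in high lines and from 7.995 through 9.12 to 9.94 in low lines. Most high lines lay below most low lines, although a group of high lines sat at the low-line level. The difference was -0.76 (SE 0.096, limma adjusted p = 1.09e-09). Minghui 63 measured 6.79, 7.01 and 7.78, and Zhenshan 97 measured 8.96, 8.92 and 8.91.

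The neighbouring beta-glucosidase genes BGLU31, BGLU32 and BGLU33, glycoside hydrolases that split sugar conjugates, sit at offsets -99, -98 and -97, and all 3 were lower in high lines. BGLU32 ran from 6.75 through 7.498 to 8.30 in high lines and from 7.45 through 8.19 to 8.61 in low lines. The bulk of the classes was apart and the ends overlapped, with a difference of -0.61 (SE 0.046, limma adjusted p = 4.28e-21). BGLU31 averaged 6.67 in high lines and 7.20 in low lines (-0.53, limma adjusted p = 8.51e-07). BGLU33 averaged 7.71 in high lines and 7.97 in low lines (-0.26, limma adjusted p = 0.000118). In the parents, Minghui 63 was likewise lower for BGLU31 (6.77 against 8.05), BGLU32 (7.18 against 8.11) and BGLU33 (7.26 against 8.07). The BGLU genes are related in sequence, and hybridisation of one gene's transcript to another's probes was not tested.

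HSP81-3 is a cytosolic Hsp90 chaperone gene at offset -275, measured by 4 probe sets. Its main probe set ran from 12.44 through 12.82 to 13.29 in high lines and from 12.53 through 13.25 to 13.53 in low lines. High lines gathered below low lines with some of each class inside the other, and the difference was -0.35 (SE 0.038, limma adjusted p = 1.95e-12). The other 3 probe sets of HSP81-3 differed by -0.72 (limma adjusted p = 1.62e-08), -0.35 (0.0118) and -0.30 (0.11), all in the same direction. HSP81-2, the related Hsp90 gene at offset -278, averaged 12.09 in high lines and 12.11 in low lines (-0.02, limma adjusted p = 0.822).

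**Figure D3:**
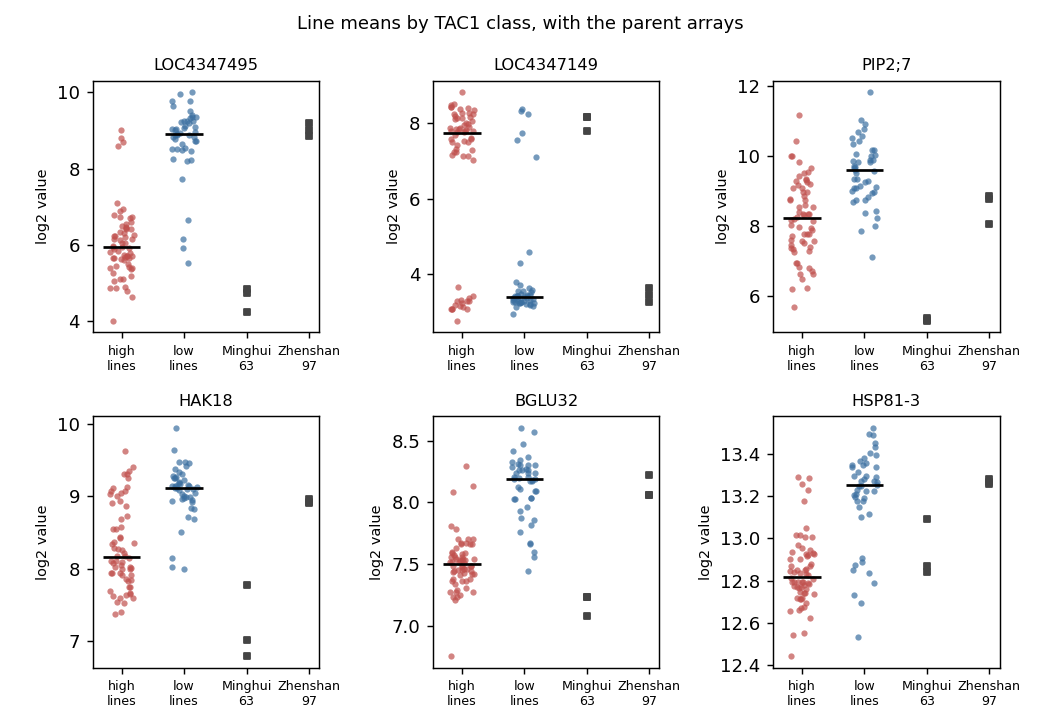
Line means (deposited log2 values) of 6 chromosome 9 genes in high and low TAC1 lines, with the 3 arrays of each parent; black bars are medians. LOC4347149 forms separate groups of lines inside both classes, with medians of 7.73 in high lines and 3.40 in low lines, whereas PIP2;7 is spread continuously, with medians of 8.23 and 9.60.

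The other named genes of chromosome 9 changed by less than 0.5. A gene listed as RLK10 and also as CERK1 (offset -103) averaged 6.56 in high lines and 7.01 in low lines (-0.45, limma adjusted p = 9.41e-06). Whether it is the chitin receptor kinase of the name CERK1 was not tested. Its parental difference of -0.12 was not called (limma adjusted p = 0.748), and its repeatability between the replicates was 0.19. RF2a, a bZIP factor known from promoter binding in the tungro virus of rice and from vascular development (offset -69), averaged 6.92 in high lines and 7.36 in low lines (-0.44, limma adjusted p = 2.74e-14). KRP6, a cyclin-dependent kinase inhibitor (offset -402), averaged 9.34 in high lines and 9.65 in low lines (-0.31, limma adjusted p = 0.00794). CSLE1, of the cellulose synthase-like family (offset -311), averaged 7.67 in high lines and 7.94 in low lines (-0.28, limma adjusted p = 0.00074). Also lower were bHLH081, a basic helix-loop-helix factor (-0.26), and BASS5, of a family of organic anion carriers (-0.22). The 4 higher genes were a gene listed as cellulase, DRB2, ZHD1 and UGE-3. The cellulase gene (offset 30) averaged 11.45 in high lines and 11.17 in low lines (0.29, limma adjusted p = 1.57e-11). DRB2, a double-stranded RNA binding protein (offset -118), averaged 10.43 in high lines and 10.19 in low lines (0.23, limma adjusted p = 1.11e-05). ZHD1, a zinc finger homeodomain factor, and UGE-3, a UDP-glucose epimerase, were higher by 0.21 and 0.19. For bHLH081 the parents ran the other way, with 8.04 in Minghui 63 and 7.55 in Zhenshan 97, a difference limma did not call (adjusted p = 0.214).

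The largest differences on chromosome 9 belonged to genes with no name beyond a locus identifier, which were chosen after their values were seen. LOC4347149, LOC4347150 and LOC4347151, neighbours at offsets -531 to -529, were all higher in high lines, by 2.70, 2.36 and 1.49 at the probe set with the widest difference of each. LOC4347149 has 3 other probe sets, whose differences were 0.52, 0.50 and 0.42, all called higher. The parental differences at the first and the second of them, 0.21 and 0.10, were not called. The values below for LOC4347149 are those of the probe set with 2.70. LOC4347149 ran from 2.76 through 7.73 to 8.81 in high lines and from 2.95 through 3.40 to 8.37 in low lines. Lines of each class occurred at both levels: 16 of 64 high lines lay on the Zhenshan 97 side of the parental midpoint and 6 of 46 low lines on the Minghui 63 side. The same counts, 16 and 6, were found for LOC4347150 and LOC4347151. LOC4347495, at offset -154, ran from 3.995 through 5.93 to 9.03 in high lines and from 5.51 through 8.92 to 10 in low lines. It was lower in high lines by a difference of -2.70 (SE 0.182, limma adjusted p = 5.04e-24), with 7 of 64 high lines and 4 of 46 low lines on the side of the other parent. LOC4347395, at offset -286, differed by -1.13 (limma adjusted p = 7.92e-12), with 8 of 64 high and 9 of 46 low lines on the side of the other parent. The 2 other probe sets of LOC4347395 differed by 0.05 and -0.02 and were not called (limma adjusted p = 0.727 and 0.892), so the difference of that gene rests on 1 of its 3 probe sets.

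These genes also measured how far lines kept the parental side of TAC1. Probe sets were taken that differed by at least 2 between the parents with a call and had a repeatability between the replicates of at least 0.7. A line was put on the side of the parent nearer to it, and the lines on the same parental side as TAC1 were counted as a description. On other chromosomes, 143 such probe sets shared the side of TAC1 in 41 to 68 of the 110 lines, with a median of 56. On chromosome 9 there were 11. At the far end, LOC4346431 at offset -1276 shared it in 60 lines, LOC4346455 at -1256 in 58 and LOC9272276 at -1232 in 60. These counts lay inside the range of the other chromosomes, as did 44 for LOC4346816 at -890 and 62 for LOC4346837 at -865. The count was 88 lines (80.0%) at offsets -531 to -529, 93 lines (84.5%) for LOC4347395 at -286 and 99 lines (90.0%) for LOC4347495 at -154. Agreement with TAC1 was therefore greater for the genes nearer to it, on the side before TAC1.

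**Figure D4:**
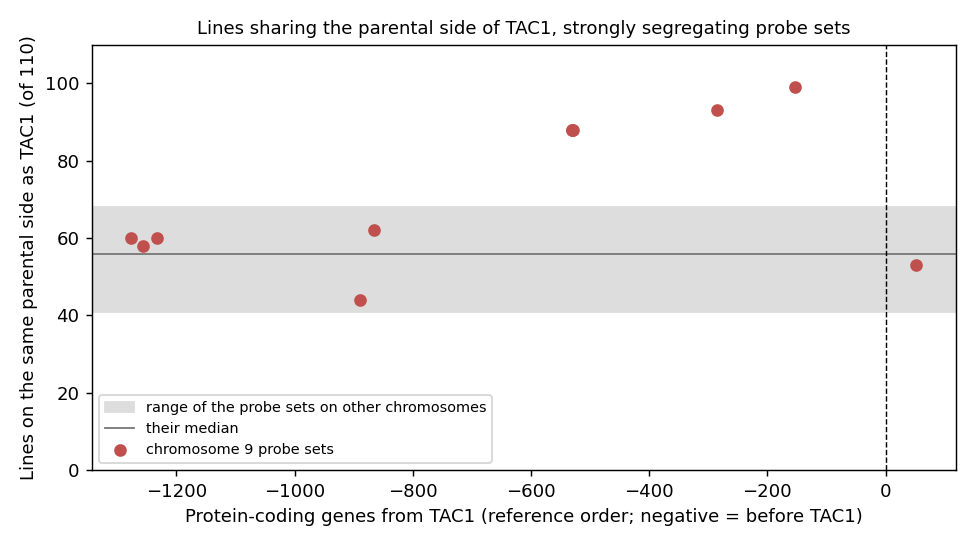
Number of the 110 lines on the same parental side as TAC1 (y) for 11 strongly segregating probe sets of chromosome 9, against their offset in protein-coding genes from TAC1 (x); the grey band is the range (41 to 68) and the line the median (56) of 143 such probe sets on other chromosomes. The counts are 88 to 99 for the 5 probe sets between offsets -531 and -154, with LOC4347708 at offset 52 the exception at 53.

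LOC4347708, at offset 52 and so the nearest of the 11, did not follow this order. Minghui 63 measured 5.88, 6.28 and 7.13, and Zhenshan 97 measured 12.24, 12.01 and 12.11. High lines ran from 7.995 through 10.63 to 12.28, and low lines from 11.01 through 12.11 to 12.80. Low lines lay around the Zhenshan 97 arrays, whereas no high line reached the level of a Minghui 63 array, and 7 of 64 high lines and 0 of 46 low lines lay on the Minghui 63 side of the midpoint. The class difference was -1.58 (SE 0.137, limma adjusted p = 1.73e-17). LOC4346816, at offset -890, also had few lines on the Minghui 63 side, 6 of 64 high lines and 8 of 46 low lines.

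Signs of the class differences were set against the parents, whose arrays took no part in the class test but set the limit of 8.0 through TAC1. Between Minghui 63 and Zhenshan 97, limma called 2917 of 27735 probe sets (10.5%), 1367 (4.93%) of them higher and 1550 (5.59%) lower in Minghui 63. On chromosome 9 it called 118 of 913 (12.9%), close to 1981 of 16079 (12.3%) on the other chromosomes. Parental calls rest on 3 arrays each, and the count changed when 1 array was left out. Omitting Minghui 63 replicate 1 or 2 gave 1375 or 1164 calls, and omitting Zhenshan 97 replicate 1 or 2 gave 1493 or 1539. Omission of the third array gave 2723 calls for Minghui 63 and 3146 for Zhenshan 97. Of the 121 chromosome 9 probe sets called between the classes, 105 (86.8%) had the sign of the parental difference. Of the same 121, 39 (32.2%) were called between the parents too, and all 39 had the same sign. On the other chromosomes, 18 of the 22 called probe sets had the parental sign and 1 was called between the parents. Of the 67 called probe sets without a gene, 47 (70.1%) had the parental sign. Between the parents, 15 of the 67 were called, 14 of them with the same sign. The exception, Os.25910.1.S1_s_at, differed by 1.18 between the classes and by -1.32 between the parents (limma adjusted p = 0.00523).

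Seen from the parents, chromosome 9 stood apart in the same way. It had 65 probe sets with a called parental difference of at least 1, of which 27 (41.5%) were called between high and low lines. The other chromosomes had 953 such probe sets, of which 1 (0.105%) was called between the classes, and probe sets without a gene had 516, of which 11 (2.13%) were called. The median ratio of the class difference to the parental difference over the 65 was 0.0856 up to offset -401 (31 probe sets) and 0.240 from -400 to -201 (17). It was 0.412 from -100 to -1 (7 probe sets), 0.277 from 1 to 100 (3) and 0.147 from 101 on (6), with 1 probe set at 0.609 from -200 to -101. By these medians the class difference was a fraction of the parental one in every interval, and these bins hold few probe sets. Single ratios ran from -0.107 to 0.609, and a ratio below 0 is a class difference against the parental sign.

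**Figure D5:**
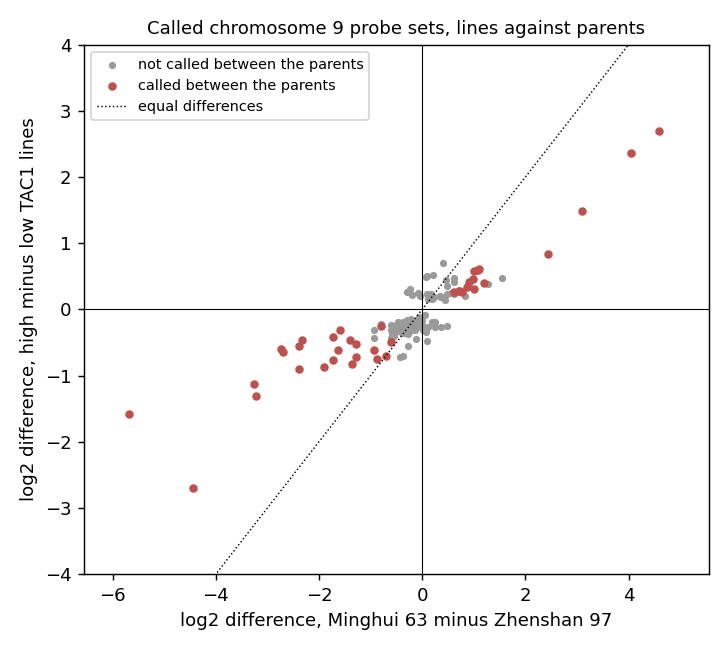
High-minus-low log2 difference of the 121 called chromosome 9 probe sets (y) against Minghui 63 minus Zhenshan 97 (x); red points were also called between the parents and the dotted line marks equal differences. All 39 red points have the same sign on both axes, and 16 of the grey points do not.

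The probe sets whose line means followed TAC1 most closely were ranked by Pearson correlation over the 110 line means, as a description of arrays that share lines and hybridisations. The highest was OsAffx.18009.1.S1_s_at, which has no annotated gene, at 0.890. It ran from 6.32 through 8.47 to 9.05 in high lines and from 6.20 through 6.72 to 8.30 in low lines, and it averaged 8.43 in high lines and 6.75 in low lines. Next came LOC4347559 (0.768, offset -86), LOC4347498 (0.758, offset -151), LOC4347726 (0.750, offset 69) and LOC4347510 (0.741, offset -135). A second probe set of LOC4347559 went the opposite way, at -0.26 (limma adjusted p = 4.47e-10) against 0.26 for the first (limma adjusted p = 1.53e-17), so the direction of that gene is unsettled. The most negative were LOC4347621 (-0.806, offset -29), LOC4347495 (-0.802), Os.18126.1.S1_at (-0.798, no gene), LOC4347611 (-0.786, offset -40) and BGLU32 (-0.784). All 8 of these probe sets that have a gene lie on chromosome 9, between offsets -154 and 69.

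Probe sets without a gene held the widest class differences of all. Os.56098.1.S1_at ran from 2.70 through 3.16 to 9.37 in high lines and from 2.80 through 8.65 to 9.58 in low lines. Medians were far apart although lines of both classes occurred at both levels, and the difference was -3.68 (SE 0.405, limma adjusted p = 4.88e-12). Os.18126.1.S1_at ran from 2.46 through 4.10 to 9.02 in high lines and from 4.30 through 8.28 to 9.14 in low lines (-3.67, SE 0.271, limma adjusted p = 1.65e-21). Their chromosome is not known from the tables used, so these 67 calls were counted apart from those on chromosome 9 and elsewhere.

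Off chromosome 9, the 22 called probe sets belonged to 21 genes, lay on chromosomes 1, 2, 3, 4, 5, 6 and 12, and were absent from chromosomes 7, 8, 10 and 11. Their median absolute difference was 0.229. Of these genes, 2 had a usable name. RR5, a response regulator of cytokinin signalling on chromosome 4, averaged 6.20 in high lines and 5.96 in low lines (0.24, SE 0.062, limma adjusted p = 0.0317). Pht1;1, a phosphate transporter gene on chromosome 3, averaged 8.48 in high lines and 8.30 in low lines (0.18, SE 0.049, limma adjusted p = 0.0438). Its other probe set averaged 7.27 in high lines and 7.24 in low lines and was not called (0.04, limma adjusted p = 0.804). The lowest adjusted p, chosen after the values were seen, belonged to LOC4341435 on chromosome 6, which averaged 7.53 in high lines and 7.80 in low lines (-0.28, SE 0.045, limma adjusted p = 3.4e-06). The adjustment pooled the probe sets of all chromosomes, so the many low p-values on chromosome 9 eased the calling of probe sets elsewhere. Unadjusted limma p-values were 0.00021 for RR5, 0.000319 for Pht1;1 and 9.44e-09 for LOC4341435. An adjustment over the other chromosomes alone was not run, and the share of false calls among the 22 was not tested. From single replicates fewer of the 22 were called, 3 in replicate 1 arrays and 3 in replicate 2 arrays. With single arrays and the line as a random block, 48 probe sets were called off chromosome 9.

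Of the probe sets on the other chromosomes, 0.137% were called. Of 5 measured genes listed for tiller angle and shoot gravitropism, all on those chromosomes, 0 were called. A count this small says little about the list, and their differences ran from -0.03 to 0.06 with a median of 0.03, against a median of -0.02 over 14620 genes. LA1 (LAZY1), which directs auxin redistribution under gravity, ran from 8.97 through 10.46 to 11.06 in high lines and from 8.82 through 10.39 to 10.995 in low lines. The classes overlapped almost completely, and the difference was 0.06 (SE 0.085, limma adjusted p = 0.764). The entry matched as HSFA2D, a heat stress factor placed upstream of LAZY1, averaged 9.71 in both classes (limma adjusted p = 0.997), but it also carries the names of another gene. WOX11, a homeobox factor of crown root growth and gravitropism, averaged 5.15 in high lines and 5.12 in low lines (limma adjusted p = 0.848). IBH1, a helix-loop-helix repressor of leaf lamina bending, averaged 8.10 in high lines and 8.04 in low lines (limma adjusted p = 0.685). SLR1, the DELLA repressor of gibberellin responses, averaged 8.59 in high lines and 8.61 in low lines (limma adjusted p = 0.741).

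Across all 15 lists, 195 genes were measured and 2 were called, a share near the 0.757% of all tested probe sets. They were PIP2;7 among 19 aquaporins and HSP81-3 among 21 heat shock proteins and chaperones, both lower in high lines and both on chromosome 9. Outside PIP2;7, the aquaporins differed by -0.19 to 0.06, with 12.84 in both classes for PIP1;2. None was called among 4 strigolactone and tillering genes, 3 auxin transport genes, 45 auxin response genes, 11 gibberellin genes and 7 brassinosteroid genes. D14, the strigolactone receptor, averaged 9.65 in both classes (limma adjusted p = 0.966), and IPA1, a regulator of plant architecture, averaged 5.56 in high lines and 5.59 in low lines (limma adjusted p = 0.771). None was called among 14 light harvesting and chlorophyll genes, 29 cell wall genes, 20 cell cycle genes, 4 genes of oxygen limitation, 2 root markers and 5 endosperm and embryo markers. Of 10 iron acquisition genes 0 were called, with the list's largest difference at NAS1, a nicotianamine synthase gene, which averaged 7.88 in high lines and 7.25 in low lines (0.63, limma adjusted p = 0.59). LEA19, a late embryogenesis protein among the embryo markers, averaged 7.19 in high lines and 7.79 in low lines (-0.60, limma adjusted p = 0.34).

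Whether other transcripts tracked the level of TAC1 inside a class was examined by regression on the line's TAC1 mean. TAC1 and the other probe sets were read from the same arrays. Tracking of TAC1 and variation shared by a whole array therefore cannot be told apart in this regression. Within the 64 high lines, limma called 6365 of 27734 probe sets (23%), 4436 (16%) rising and 1929 (6.96%) falling with TAC1, and 10365 (37.4%) had an unadjusted p under 0.05. With each array centred on its median, the split was 3234 rising and 3922 falling. Readings of TAC1 and of the other transcripts from different arrays were also tried, although TAC1 itself was weakly related between the replicates of these lines (0.0981). With TAC1 from replicate 1 and the other probe sets from replicate 2, limma called 0 probe sets (0%), with 461 (1.66%) at an unadjusted p under 0.05. With the replicates exchanged it again called 0 (0%), with 1178 (4.25%) at an unadjusted p under 0.05. Within replicate 1 alone 14975 (54%) and within replicate 2 alone 15064 (54.3%) were called. Within the 46 low lines, limma called 0 of 27734 (0%), with 2138 (7.71%) at an unadjusted p under 0.05. From single replicates it called 0 in replicate 1 (0%) and 2585 in replicate 2 (9.32%). Both crossed readings of the low lines also gave 0 calls (0%).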

How the data were processed

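Shoot RNA of 110 lines and 2 parents was hybridised to 226 one-colour Affymetrix Rice Genome arrays. RMA and affy are named in the submitters' processing notes, without settings or versions. The authors deposited log2 values, which were used unchanged. They span 1.16 to 14.35, and the array medians lie between 4.77 and 5.07. Precision is limited by the number of arrays, and p-values measure the spread between the lines sampled.

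Of 57381 probe sets, 123 AFFX and 64 RPTR controls, TAC1 and probe sets with a mean under 5 were left out, which left 27734. The platform annotation gave 22436 probe sets 1 gene and 95 several, with 34663 others unlisted. A gene table of assembly ASM3414082v1 held all 22436 and gave names, chromosomes and gene order. The annotation names no build, so no coordinates are given. Probe sets with the suffixes _s_at or _x_at can match several transcripts.

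Values were centred within replicate number, averaged per line and tested with limma 3.58.1 (lmFit and eBayes, in R 4.3.3 with statmod 1.5.0) with Benjamini-Hochberg adjustment over all 27734 and an adjusted p under 0.05. The line was the replicate. The same test compared 3 Minghui 63 with 3 Zhenshan 97 arrays, the replicate difference per line between classes, and TAC1 level inside a class. On simulated data, 86.6% of differences of 0.25, 94% of 0.5 and 100% of 1 were recovered between the classes. These are shares of 67, 67 and 66 changed probe sets among 27734, with 7 unchanged ones called. Recovery on the measured line means, which form separate groups of lines at probe sets such as that of LOC4347149, was not tested.

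Genes were named by rule: the 20 largest called named genes of chromosome 9 (16 existed), the 8 largest per direction elsewhere, the 8 nearest measured genes on each side of TAC1, all tiller angle genes, up to 4 called members per list, and the 5 probe sets per sign most like TAC1, with 1 probe set per gene, that of the highest mean. Of 342 listed symbols, 5 entries were removed for identity after matching, and 258 matched. Members, lists and rules were chosen with earlier results of these data known. Alternatives covered replicate blocks, single replicates, scaling, filters, class limits and near-identical lines.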

Additional observations from a re-analysis of the deposited data

Results flagged for a closer look

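The class difference itself differed between the replicate numbers at 4 of 27734 probe sets (0.0144%), by limma on each line's replicate 2 minus replicate 1 value, with 64 high and 46 low lines. At LOC4347149, replicate 1 averaged 7.49 in high lines and 4.198 in low lines, and replicate 2 averaged 5.90 in high lines and 3.805 in low lines. The class difference was 3.30 in replicate 1 and 2.10 in replicate 2, a change of -1.20 (SE 0.197, limma adjusted p = 0.0005). The 2 other probe sets of that gene among the 4 changed by -0.40 (SE 0.081) and -0.51 (SE 0.100), both with a limma adjusted p of 0.0142. All 3 kept the same direction in both replicates. The remaining probe set belonged to RPL9, a ribosomal protein gene at offset -244, with class differences of 0.09 in replicate 1 and -0.15 in replicate 2, a change of -0.23 (SE 0.046, limma adjusted p = 0.0142). RPL9 averaged 11.99 in high lines and 12.02 in low lines and was not called between the classes (limma adjusted p = 0.625).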

How the results depend on the processing

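Leaving out the replicate block cannot change a value, since every line has both replicates, and the line between 7 and 9 is also the line with arrays on both sides, so these settings were not counted separately. Of the remaining 272 alternative values for 28 called named genes, 249 kept direction and call, 23 kept direction only and 0 reversed. The 20 named genes that were not called had 196 such values, of which 6 gained a call and 11 reversed, 8 of the 11 when 1 replicate was left out. The gains were LOC4347667 without replicate 2 and LOC4347666 under 5 alternatives, with limma adjusted p from 0.0355 to 0.0493. Over the single replicates, the difference ran from -0.1561 to 0.099 for LOC4347651, from -0.0061 to 0.125 for HOX6, from -0.0173 to 0.101 for LOC4347642 and from -0.1545 to 0.0213 for LOC4347659. It ran from -0.0925 to 0.2253 for LOC4347667, from -0.0404 to 0.0431 for ML6, from -0.0202 to 0.0219 for HSFA2D and from -0.0761 to 0.1428 for WOX11. HSFA2D also gave -0.0002 with near-identical lines dropped, and ML6 gave -0.0009 without RIL103, the line between 7 and 9, and -0.0037 with TAC1 level as regressor. Both list calls held under each alternative. The count of calls went from 210 to 97 and 201 with a replicate left out, and to 120 under the stricter filter (mean of 7 or more), which tests fewer probe sets. On chromosome 9 it ran from 71 to 131 by single replicates, and kept within 1.5 times under the other alternatives. On other chromosomes it was 3 to 6 by single replicates and 48 with the replicate number as a fixed and the line as a random block (within-line correlation 0.0701); without any replicate block the count of 210 was identical. Without a gene it was 23 to 64 by single replicates, 18 under the stricter filter and 132 without a filter. The replicate-by-class count was 1 under the stricter filter and 19 without a filter. The within-high count was 0 in both crossed settings and 14975 to 15064 by single replicates; the within-low count was 0 to 2585, the 2585 from replicate 2. The second crossed setting and the single-replicate regressions were chosen after seeing the data. Between the parents, the replicate block gave 934 calls. Correlations of deviations between same-numbered arrays were -0.307, -0.0657 and -0.391 for replicates 1, 2 and 3. Between arrays of unlike number they ran from -0.353 to 0.425. With 3 arrays per parent these values cannot decide whether the numbers pair the arrays. Leaving out each array in turn gave 1164 calls (without Minghui 63 replicate 2) to 3146 (without Zhenshan 97 replicate 3); the other 4 gave 1375 to 2723. The cause of these shifts was not tested. Leaving out lines whose arrays matched another line was not run, since each such line had a near-identical partner.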
